A study of Mus musculus with 4 samples.

Results

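The C-type lectin receptor genes Mrc1, Clec4e, Clec4d, Clec4n, Clec4a2 and Clec10a were followed in thioglycollate-elicited mouse peritoneal macrophages labelled PPARg KO and PPARg WT. The 6 genes were taken as named, and every probe set with values that the platform annotation assigns to them was used. This gave 4 probe sets, 1 each for Mrc1, Clec4e, Clec4d and Clec4a2, of 10649 probe sets with values, which name 7577 genes. Clec4n and Clec10a were not analysed here, because the annotation assigned no probe set with values to them. Of the 4 probe sets, 3 passed a filter on dim signals, and Clec4a2 did not.

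Both groups came from mice on a mixed 129/SV and C57BL/6 background, and each had 2 arrays, 4 in all. Cells were lavaged on day 3 after thioglycollate (2.5 ml at 3%) had been injected, a broth that recruits blood monocytes, which become macrophages in the cavity. After adhering for 5 h in 10% serum, the cells of both groups were kept for 24 h in 0.5% serum with no ligand or stimulus. The KO is described only as PPARg KO: how the gene was deleted, in which cells, and the age of the mice are not given in the sources used here. No label ties the arrays of a group to separate mice or cultures, and both replicates 2 are described with the ending dup. The p-values therefore cover only array-to-array spread, possibly technical.

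C-type lectin receptors are surface proteins of myeloid cells that share a calcium-dependent sugar-binding fold, although some members bind lipids or proteins. Mrc1 encodes the mannose receptor, which takes up mannosylated glycoproteins and is a marker of macrophages exposed to interleukin-4. Clec4e encodes Mincle and Clec4d encodes MCL, neighbouring genes whose products bind mycobacterial cord factor and signal through the Fc receptor gamma chain, the kinase Syk and the adaptor CARD9. Clec4n encodes Dectin-2, a receptor for fungal mannans, Clec4a2 encodes the inhibitory receptor DCIR, and Clec10a encodes the galactose-type lectin MGL1.

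The RefSeq promoter windows (GRCm38.p6, 250 bases before to 50 after the annotated start) of the member that rose, the member that fell and the neighbour of the latter are shown. Capitals mark GAGGAA on either strand, the core bound by PU.1 and other ETS factors.
Mrc1, chr2:14229164-14229463, plus strand: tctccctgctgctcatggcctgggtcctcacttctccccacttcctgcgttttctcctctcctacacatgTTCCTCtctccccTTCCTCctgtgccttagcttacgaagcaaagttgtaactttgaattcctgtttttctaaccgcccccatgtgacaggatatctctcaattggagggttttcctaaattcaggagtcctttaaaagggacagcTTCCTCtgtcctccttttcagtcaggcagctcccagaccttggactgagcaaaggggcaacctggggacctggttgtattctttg
Clec4e, chr6:123289822-123290121, minus strand: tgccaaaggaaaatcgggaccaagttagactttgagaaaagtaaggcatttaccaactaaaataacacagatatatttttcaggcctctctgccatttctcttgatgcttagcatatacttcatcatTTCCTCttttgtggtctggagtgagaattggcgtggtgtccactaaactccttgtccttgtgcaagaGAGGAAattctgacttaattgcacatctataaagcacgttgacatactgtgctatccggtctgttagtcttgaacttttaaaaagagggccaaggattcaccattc
Clec4d, chr6:123261857-123262156, plus strand: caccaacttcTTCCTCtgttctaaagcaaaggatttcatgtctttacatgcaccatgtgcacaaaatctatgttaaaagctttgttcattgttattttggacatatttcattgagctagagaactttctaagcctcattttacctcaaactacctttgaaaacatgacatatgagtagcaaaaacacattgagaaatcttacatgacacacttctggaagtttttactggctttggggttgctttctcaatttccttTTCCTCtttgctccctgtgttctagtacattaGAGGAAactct

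GAGGAA was found 3 times in the Mrc1 window, 2 times in the Clec4e window and 3 times in the Clec4d window, and 28.3% of 32851 promoter windows hold it at least once. The Clec4e window also held a C/EBP motif (TTGCNNAA, on the reverse strand, 66 bases before the start), which 10.8% of windows hold, and a TATA box (TATAAA, 29 bases before the start), which 13.6% hold. The letters of these 2 motifs were not in the Mrc1 or Clec4d windows. An AP-1 motif (TGANTCA, in 7.81% of windows), a STAT motif (TTCNNNGAA, 8.3%), the STAT6 form with 1 more free base (6.95%), the NF-kB consensus (4.51%) and the direct repeat bound by PPAR with its partner RXR (AGGNCA in tandem with 1 base between, 0.381%) were in none of the 3 windows on either strand. Overlapping matches were each counted, and a match is a description of these letters only.

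The signal of an Affymetrix array holds cross-hybridisation as well as specific binding, so each signal was set against antisense control probe sets, which match the opposite strand of control transcripts. The 12 antisense controls with values had medians of 103.8 and 116.0 (WT) and of 111.4 and 106.7 (KO), and their highest values ran from 143.7 to 156.7. Array medians over all probe sets were 137 to 142 intensity units. Each log2 difference is the mean log2(signal + 16) in KO less that in WT, tested with limma. Adjusted p-values are Benjamini-Hochberg values over all 6389 probe sets past the filter. The only Pparg probe set, below the filter, read 61.1 and 73.1 in WT and 43.0 and 40.6 in KO, all below the antisense median of their array. In the fit without the filter it was called lower in KO (log2 difference -0.52, limma adjusted p = 0.00012). The difference was -0.42 without WT replicate 2, and its size cannot be read from signals at the background. The deleted part of Pparg is not described, so this probe set may check nothing.

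Mrc1, the mannose receptor gene, was higher in KO. The WT arrays read 93.0 and 94.8, and the KO arrays read 174.1 and 205.4. Both WT signals lay below the antisense median of their array (0.90 and 0.82 times that median), and both KO signals lay above the highest antisense control (1.56 and 1.93 times the median). The groups did not overlap, and the WT arrays differed little from each other. Mean signals were 93.9 ± 1.27 (SD, n = 2) in WT and 190 ± 22.1 (SD, n = 2) in KO, with a log2 difference of 0.90 (SE 0.11, 95% interval 0.68 to 1.12, limma adjusted p = 1.04e-13). Because WT had no signal above the control median, its level there is only a bound, and KO was at least 1.63-fold higher against that median. Its mean over the 4 arrays passed the signal filter of 111 only through the KO arrays, since the WT mean lay below it. In the fit without the filter Mrc1 had a limma adjusted p of 1.53e-12.

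Clec4e, the Mincle gene, was lower in KO. The WT arrays read 426.8 and 358.5 and the KO arrays 202.8 and 235.9, all 4 above the highest antisense control. WT replicate 1 was the highest array, and the lowest WT signal was still above the highest KO signal. Mean signals were 393 ± 48.3 (SD, n = 2) in WT and 219 ± 23.4 (SD, n = 2) in KO, a fall of 1.73-fold on the scale of the fit (log2 difference -0.79, SE 0.12, 95% interval -1.04 to -0.55, limma adjusted p = 2.56e-08). Against the antisense median, Clec4e went from 4.11 and 3.09 times in WT to 1.82 and 2.21 times in KO. In KO it was therefore dimmer but remained above the control level.

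Clec4d, the MCL gene next to Clec4e, did not pass. Its signals were 1285.1 and 1233.1 in WT and 1219.1 and 1381.0 in KO, between 10.6 and 12.9 times the antisense median. The KO arrays enclosed both WT arrays, with KO replicate 1 the lowest and KO replicate 2 the highest. The log2 difference was 0.04 (SE 0.16, 95% interval -0.27 to 0.35, limma adjusted p = 0.9997). A change of either sign within that interval is not excluded. The 95% interval of Clec4e lay wholly below that of Clec4d, and the difference between their responses was not tested.

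Clec4a2, the DCIR gene, gave no signal above the control level. Its signals were 72.6 and 57.5 in WT and 71.7 and 75.7 in KO, between 0.50 and 0.71 times the antisense median of their array. The genotypes overlapped, and WT replicate 2 was the lowest array. It did not pass in the fit without a signal filter (limma adjusted p = 0.79), and the size of a difference cannot be read from signals at the background.

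**Figure D1:**
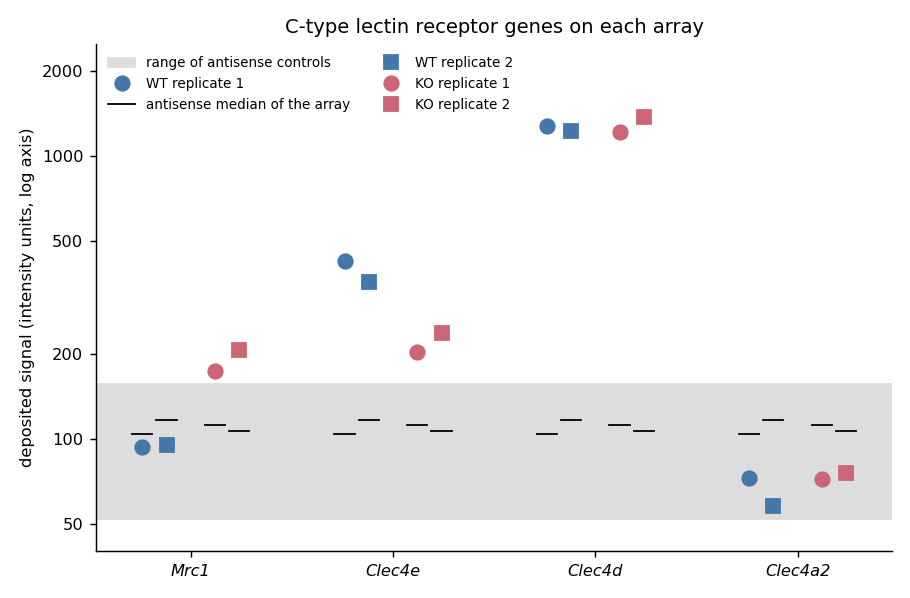
Signals of the 4 measured members on each array (log axis, intensity units), with WT in blue and KO in red, circles for replicate 1 and squares for replicate 2. Black ticks mark each array's antisense median and the grey band the range of all antisense controls; Mrc1 leaves the band only in KO, Clec4e is lower in KO but stays above it, Clec4d overlaps between genotypes, and Clec4a2 lies inside the band on all 4 arrays.

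Of the 4 members measured, Mrc1 rose and Clec4e fell, Clec4d did not pass, and Clec4a2 was below the filter. A gene that enters the test through its high group, as Mrc1 did, had to differ, so the count is a description only. Over all 5002 genes tested, each by its brightest probe set, 1.06% rose and 2.66% fell, 3.72% in all, and over all 6389 probe sets tested 1.02% rose and 2.54% fell. The KO arrays lay wholly above or wholly below the WT arrays for Mrc1 and Clec4e and not for Clec4d, and this was so for 32.2% of all genes tested. An exact permutation test of a single gene cannot go below p = 0.333 with 2 arrays against 2, the value that Mrc1 and Clec4e gave. The very small p-values rest on a spread estimated from all probe sets at the same brightness. With each probe set's own spread (2 degrees of freedom), Mrc1 had an unadjusted p of 0.0147 and Clec4e of 0.0373 in limma's unmoderated fit, and neither passed after adjustment (adjusted p = 0.78 for both).

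The directions of Mrc1 and Clec4e held under every setting in which they were tested, and both passed with any 1 array left out. In those fits a single array stands for its genotype and the spread comes from the other genotype's pair and the trend, so the passes do not measure the lone group's own spread. Without 1 array at a time, the log2 difference of Mrc1 ran from 0.79 to 1.01 and that of Clec4e from -0.92 to -0.67. The smallest difference came without KO replicate 2 for Mrc1 and without WT replicate 1 for Clec4e. Clec4d turned to -0.046 without KO replicate 2, and it did not pass under any setting.

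**Figure D2:**
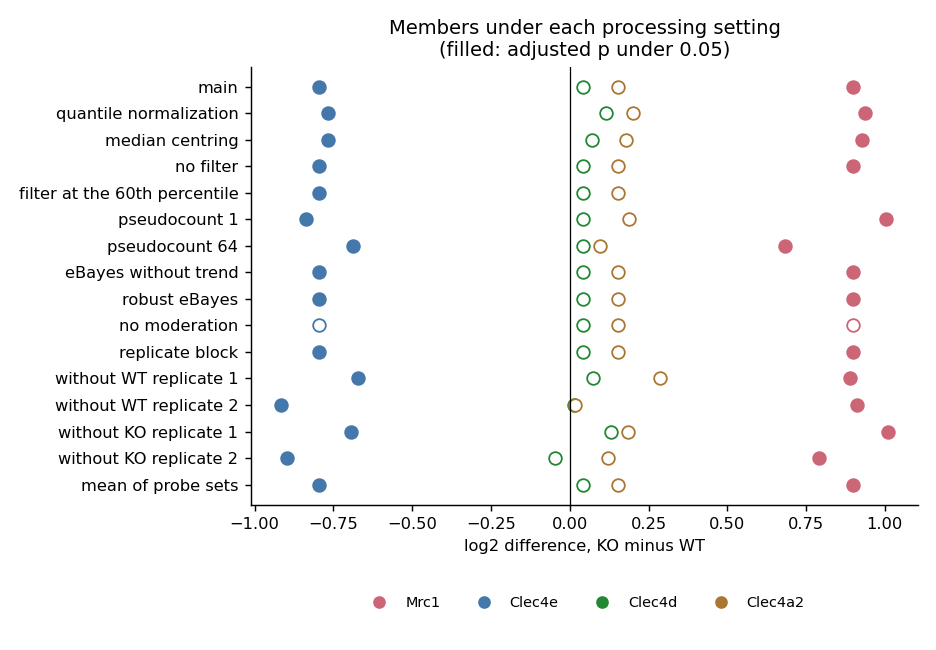
Log2 difference (KO minus WT, horizontal axis) of each measured member under the main fit and each alternative setting (rows), filled where adjusted p was under 0.05. Mrc1 stays right of 0 and Clec4e left of 0 in every row, both open only without variance moderation, while Clec4d and Clec4a2 are open throughout; Mrc1 has no point at the 60th percentile filter, which removes it.

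Other genes with a C-type lectin domain were then examined. Of 46 on the list, 12 had a probe set with values and 5 were tested: 1 fell, 0 rose and 4 did not pass, with a median log2 difference of -0.03, near the -0.02 of all genes tested. The gene that fell was Ly75, which encodes DEC-205, a relative of the mannose receptor that delivers antigen for presentation. Ly75 read 438.8 and 360.8 in WT and 218.6 and 235.8 in KO, so the genotypes did not overlap (log2 difference -0.77, SE 0.13, limma adjusted p = 1.24e-07). Without WT replicate 1 it was -0.63 with adjusted p = 0.071. Mrc2, which encodes another mannose receptor relative that takes up collagen, had means of 137 in WT and 148 in KO (log2 difference 0.09, limma adjusted p = 0.9997) and did not pass. Its signals were near the control level, 1.10 to 1.47 times the antisense median, so a difference could be hidden there. Cd302, a further C-type lectin receptor gene, had means of 554 and 445 (adjusted p = 0.36), and Cd93, whose product acts in adhesion and the clearance of dying cells, had 588 and 756 (adjusted p = 0.29). The remaining tested gene, Clec4f, had means of 116 and 113, at the control level (1.01 to 1.07 times the antisense median). The 7 genes below the filter, among them Cd72 (34.3 and 41.4), lay below the antisense median on all 4 arrays, and 0 of them passed in limma's fit without the filter, in which 3.11% of all probe sets passed.

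**Figure D3:**
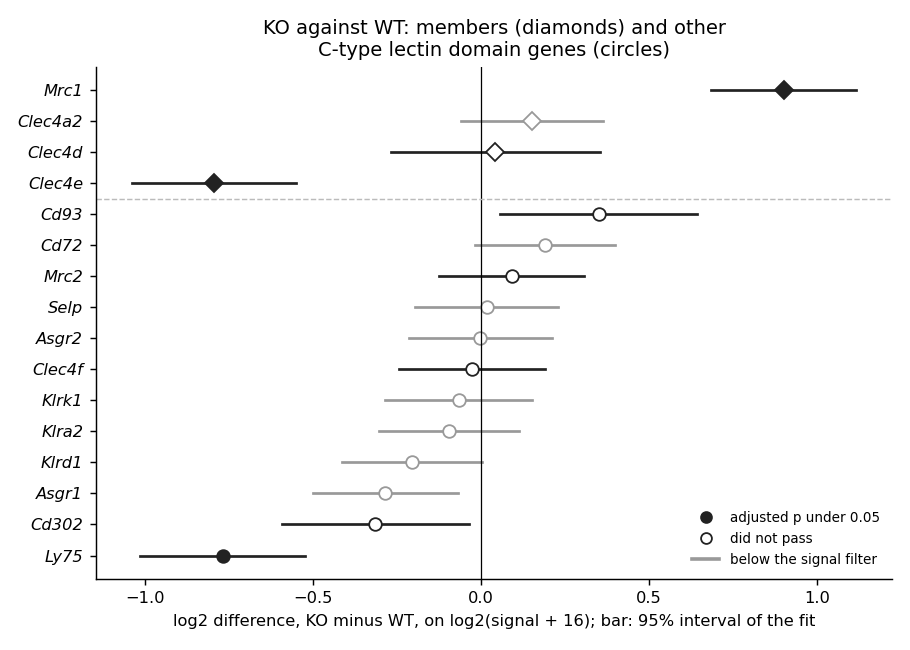
Log2 differences (KO minus WT) with 95% intervals for the 4 measured members (diamonds) and the 12 other measured C-type lectin domain genes (circles), filled where adjusted p was under 0.05 and grey where the gene was below the signal filter. Mrc1 lies furthest right, and Clec4e and Ly75 lie at nearly the same place on the left.

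Patterns over the 4 arrays were compared by the root mean square distance between gene-centred log2 values. Of 5001 other genes tested, the 3 closest to Clec4e were Ly75 (distance 0.04), the sorting nexin gene Snx10 (0.06) and the lipid phosphatase gene Plpp3 (0.07). All 3 have lower signals in KO, with log2 differences of -0.77, -0.69 and -0.83. The 3 closest to Mrc1 were Cdkn1c, which encodes the cell cycle inhibitor p57 (0.04), Cd24a, which encodes a surface sialoglycoprotein (0.07), and the proteoglycan gene Dcn (0.09). Their log2 differences were 0.97, 0.81 and 0.75. The calls of Snx10 and Dcn were lost without either WT array, and that of Cd24a without WT replicate 2. With 4 arrays such closeness reflects mostly the size of the genotype difference.

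Genes through which these receptors signal were mostly without a call, and only 3.72% of all 5002 genes tested had one. Of 8 measured adaptor and proximal kinase genes, 0 passed at limma adjusted p under 0.05, and the lowest adjusted p over their brightest probe sets was 0.19, for the exchange factor gene Vav1 (means 965 in WT and 735 in KO), named after its value was seen. Fcer1g, the Fc receptor gamma chain that Mincle, MCL and Dectin-2 need, had means of 338 and 319 (adjusted p = 0.9997, and 0.9965 on its dimmer probe set). Tyrobp, the related adaptor DAP12, had 4553 and 5222 (adjusted p = 0.93). Syk, the kinase recruited to these adaptors, had 1256 and 1219 on its brighter probe set and a log2 difference of -0.30 (adjusted p = 0.17) on the dimmer. Of 8 tested genes of the CARD9 and NF-kB step, 0 passed. These include Bcl10, the CARD9 partner, with means of 486 and 484, and the adaptor ligase gene Traf6 with 136 and 116 (adjusted p = 0.62). Traf6 was near the control level, 0.94 to 1.33 times the antisense median, so a difference could be hidden there. Map3k7, a kinase gene of the same step, was below the filter and below the antisense median on all 4 arrays. In these 2 lists 6 of 8 and 7 of 8 genes had lower means in KO, with medians of -0.07 and -0.12 against -0.02 over all genes tested. Since that last median is below 0, a majority of all genes tested had lower means in KO too.

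Phosphatases recruited by inhibitory lectins such as DCIR were 3. Ptpn6, which encodes SHP-1, read 892.4 and 828.1 in WT and 551.8 and 665.7 in KO, without overlap, and fell by 0.49 on the log2 scale (SE 0.15, limma adjusted p = 0.033). This call was lost without either WT array, without KO replicate 1 (adjusted p = 0.17) and after median centring (adjusted p = 0.11). The SHIP-1 gene Inpp5d had means of 477 and 506 and did not pass, and the SHP-2 gene Ptpn11 lay below the control median on all arrays.

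Cytokine and mediator genes that these receptors can induce went both ways. Of 9 measured, 3 were tested: Tnf fell, Cxcl1 rose and Csf3 (means 182 and 185) did not pass. Tnf, an inflammatory cytokine, read 256.4 and 283.8 in WT and 177.1 and 215.0 in KO (log2 difference -0.44, limma adjusted p = 0.0071). The Tnf call was lost without the first or the second WT array or the first KO array (adjusted p of 0.21, 0.9999 and 0.16). Cxcl1, a neutrophil-attracting chemokine, had means of 165 and 218 (adjusted p = 0.029), a call lost without either WT array, without KO replicate 2 and without the filter (adjusted p = 0.059). Its other probe set did not pass (adjusted p = 0.28). In the fit without a filter the dim genes Il1b (means 121 and 74.7) and Nos2 (90.2 and 48.0, below the control median on all 4 arrays) were also lower in KO (limma adjusted p of 1.04e-05 and 3.83e-09), and Il10 (49.9 and 54.9, below that median too) did not pass.

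Genes that carry the interleukin-4 signal, a known inducer of Mrc1, showed no call: of 7 tested, 0 passed, beside 3.72% of all genes tested. All 7 had lower means in KO, as did a majority of all genes tested, with a median log2 difference of -0.16 against -0.02 over all genes tested. The receptor gene Il4ra had means of 442 and 394 (adjusted p = 0.98), Il13ra1, the partner chain, 139 and 111 (adjusted p = 0.17), the kinase gene Jak1 764 and 666, and the transcription factor gene Stat6 517 in both groups. Il13ra1 was near the control level, 0.92 to 1.28 times the antisense median, so a difference could be hidden there. Of 5 myeloid transcription factor genes, 2 fell. Irf8, a factor of monocyte and dendritic cell development, read 2304.8 and 2607.4 in WT and 1142.6 and 1344.7 in KO (log2 difference -0.97, limma adjusted p = 1.24e-07), and its call was lost without WT replicate 1 (adjusted p = 0.079) or WT replicate 2 (0.31). Hif1a, the hypoxia factor gene, had means of 1768 and 1202 (adjusted p = 0.019). Its call was lost without either WT array and after median centring (0.075), and its other probe set did not pass (adjusted p = 0.13). Spi1, which encodes PU.1, had means of 1133 and 1075, Cebpa 1797 and 1874, and Cebpb, a known inducer of Clec4e, 1755 and 1415 (adjusted p = 0.497).

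**Figure D4:**
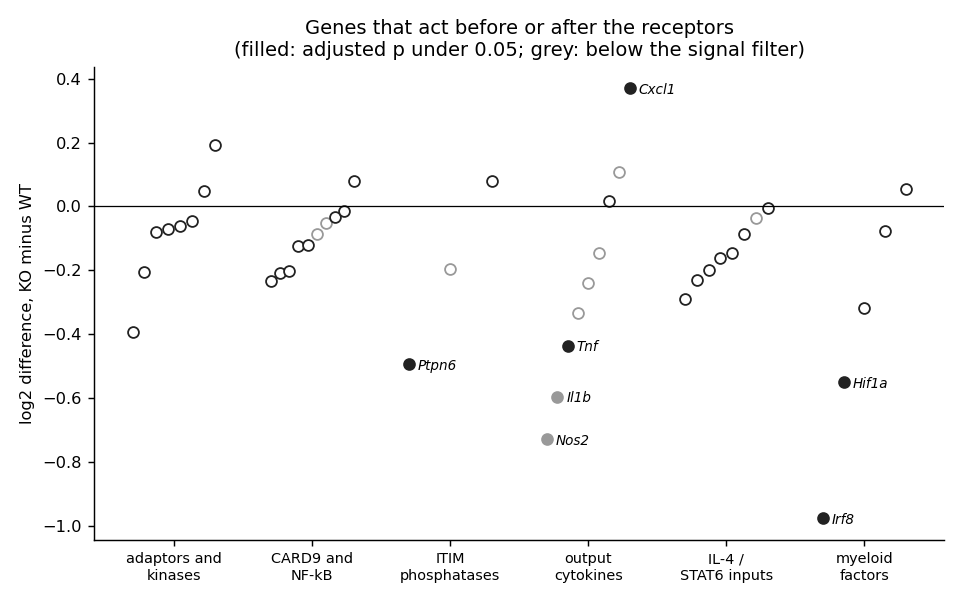
Log2 differences (KO minus WT, vertical axis) of the measured genes in 6 lists around the receptors, filled where adjusted p was under 0.05 and grey where the gene was below the signal filter. Named points passed; the adaptor, CARD9 and interleukin-4 lists hold open points only.

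Pparg, Clec4a2, Clec4n, Clec4d and Clec4e all lie on chromosome 6, with Clec4d 186 and Clec4e 187 annotated genes from Pparg in the RefSeq order. The labels do not give which parental strain this stretch came from in either group. Of 180 annotated genes between Pparg and Clec4a2, 22 were tested: 1 rose (C3ar1, a complement receptor gene, means 682 in WT and 1096 in KO), 1 fell (Usp18, which encodes an interferon-induced protease, means 330 and 240) and 20 did not pass, with a median log2 difference of -0.05. Both calls were lost without either WT array, and that of Usp18 also without KO replicate 1. Among the 25 annotated genes on either side of the Clec4 members, 5 were tested, and C3ar1 was the only one that passed. All 5 lie on the Pparg side and are part of the 22, so no gene beyond Clec4e was tested in this stretch. On the whole chromosome 258 genes were tested, of which 6 rose and 6 fell, and 3.72% of all genes tested were called. Ptpn6, whose call was lost in some settings as given above, was among those that fell. It lies 240 annotated genes from Pparg. The part of this linkage in the Clec4e result was not tested.

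**Figure D5:**
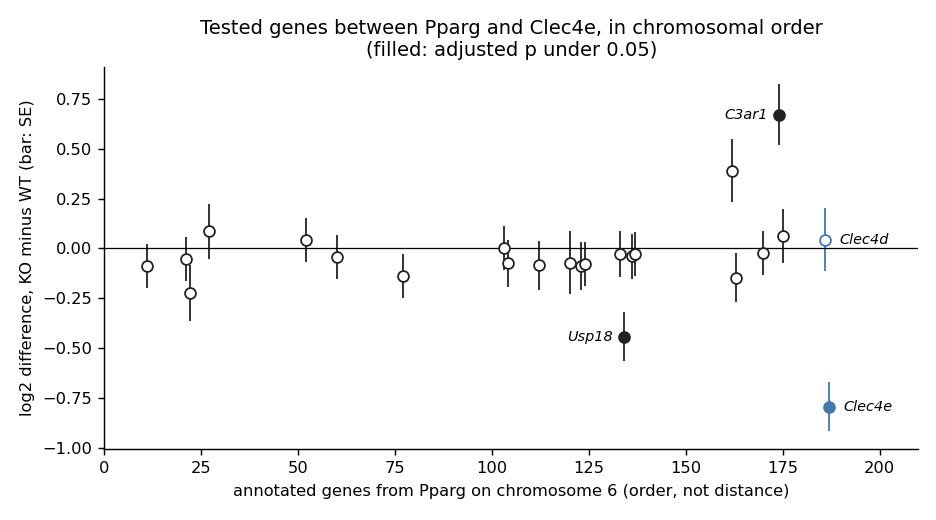
Log2 differences (KO minus WT, with SE bars) of the tested genes from Pparg to Clec4e in their order on chromosome 6, filled where adjusted p was under 0.05. Clec4e lies lowest, its neighbour Clec4d lies near 0, and C3ar1 and Usp18 are the only filled points between Pparg and the Clec4 genes.

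The labelled cell type was checked against its markers. All 10 macrophage markers were tested and 9 exceeded the highest antisense control on all 4 arrays, among them Adgre1, Cd68 and Csf1r. Their summed signal was 21606 to 22216 in WT and 20862 to 23810 in KO, and 1 of the 10, Mertk, changed (log2 difference -0.63, limma adjusted p = 1.37e-06). A summed signal follows its brightest genes, here Lyz2 (means 6940 in WT and 7195 in KO) and Cd68 (6384 and 6583). It does not give the share of a cell type. In bulk RNA, fewer cells of a type and less RNA per cell cannot be told apart.

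Neutrophils carry Clec4e and Clec4d, and dendritic cells carry Clec4a2, Clec10a and Ly75, so their markers are given beside the receptors. Of 13 measured neutrophil markers, S100a8 fell, Mmp8 rose and 5 others tested did not pass. The S100a8 call was lost without either WT array and the Mmp8 call without WT replicate 2. A second, dim probe set of the granule gene Lcn2 was lower in KO in the fit without the filter (means 120 and 74.5, with KO below the control median, limma adjusted p = 1.39e-05). The brighter Lcn2 probe set, also near the control level (1.04 to 1.24 times the antisense median), did not pass. Summed over the neutrophil markers, the signal was 2186 to 2250 in WT and 2137 to 2185 in KO, and the defining marker Ly6g lay below the antisense median on all 4 arrays. The neutrophil granule genes Elane and Camp had means of 125 in WT and 113 in KO and of 214 and 205. Elane was near the control level, 1.00 to 1.21 times the antisense median. Of 8 dendritic cell markers, 0 of 5 tested passed, among them Flt3 (191 and 180) and Xcr1 (135 and 126), and Zbtb46 lay below that median. Xcr1 was near the control level, 1.01 to 1.46 times the antisense median. The sum was 2003 to 2013 in WT and 1822 to 1992 in KO, led by Itgax (means 978 and 907). Fibroblast and mesothelial markers had a higher sum in KO, 1854 to 1883 in WT and 2336 to 2650 in KO. The brightest of them, Dcn, had means of 589 and 1002. All 4 tested had higher means in KO, with a median log2 difference of 0.32 against -0.02 over all genes tested. Dcn rose, a call lost without either WT array, and the collagen genes Col1a1 (326 and 380), Col3a1 (203 and 247) and Col1a2 (329 and 430, adjusted p = 0.12) did not pass. In the fit without the filter a dim probe set of the mesothelial keratin gene Krt19, below the control median on all 4 arrays, was also called higher in KO (58.6 and 87.1, limma adjusted p = 0.0014), while its other probe set did not pass, and the mesothelial marker Msln lay below the control median on all arrays. Resident peritoneal macrophage markers summed to 363 to 374 in WT and 388 to 392 in KO (0 of 1 tested passed). Icam2, the gene tested, had means of 110 and 115, near the control level (0.95 to 1.15 times the antisense median). Gata6 (95.55 and 120.75) and Alox15 (86.35 and 76.95) were below the filter and did not pass in the fit without it. The brightest Gata6 probe set lay below the antisense median in WT and above it in KO, while its other probe sets had lower means in KO. The summed B cell, T and NK cell, eosinophil and mast cell, and endothelial markers overlapped between genotypes, and no gene of these lists passed among 14 tested. The part of other cell types in the differences of Mrc1 and Clec4e was not tested.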

How the data were processed

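Per the labels' protocols, biotin-labelled cRNA prepared from 10 µg of RNA was hybridised. The deposited values are linear intensity per probe set and array, judged from their range. The summary of probes and the scaling of arrays by the authors are not given in the sources used here. From 12488 rows, 1780 without values and 59 controls were left out.

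Array medians lay within 0.1 of each other on the log2(intensity + 16) scale, so no further normalization was applied. Probe sets whose mean exceeded the 40th percentile (signal 111) were tested. The genotypes were compared with limma 3.58.1 (R 4.3.3) using lmFit and eBayes(trend = TRUE). Tests were two-sided, and a Benjamini-Hochberg adjusted p under 0.05 was called. The prior degrees of freedom came out infinite, so every probe set's spread was taken from the trend. Dim probe sets are given from an unfiltered fit. Each gene stands for its brightest tested probe set. Only probe sets annotated to 1 gene were named (9389, with 341 naming several and 919 none), of which 9377 matched RefSeq (GRCm38.p6) by identifier. Background was the array's median over antisense (AFFX, _st) controls. The code was tested on simulated data.

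The members, 16 gene lists (7 of pathway genes, 9 of markers) and rules were chosen with earlier results of these data known. The naming rule took Pparg, the members, list genes that passed, the first 3 measured genes of each list, some set C-type lectin genes, the 3 genes closest in pattern, and chromosomal neighbours that passed. Vav1, Stat6, Csf3, Cd93, Clec4f, Nos2, Col1a2, Krt19, Lcn2, Lyz2, Itgax and the marker genes that passed were named after their values were seen. Marker lists whose sums overlapped are given by counts only. The 15 alternatives covered normalization, filter, pseudocount, variance moderation, replicate block, leaving out each array, and averaging probe sets. Figures used matplotlib 3.10.9.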

Additional observations from a re-analysis of the deposited data

How the results depend on the processing

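Mrc1 and Clec4e kept their direction under the settings in which they were tested, and Clec4d ran from -0.046 (without KO replicate 2) to 0.13 with 1 array left out. For Mrc1 that direction was fixed wherever the filter was applied, since it passed only through its KO arrays. Without variance moderation Clec4e (-0.79) and Mrc1 (0.90) no longer passed, so 0 members were higher and 0 lower, 0 pathway genes and 0 genes between Pparg and Clec4a2 passed, and limma called 0 probe sets higher and 0 lower, with 388 at an unadjusted p under 0.05. A filter at the 60th percentile removed Mrc1, leaving 0 members higher. After quantile normalization 170 probe sets rose and 250 fell (65 and 162 as deposited), and 10 pathway genes passed (6 as deposited). Leaving out 1 array at a time gave 6 to 127 probe sets higher and 48 to 285 lower, 0 to 8 pathway genes and 0 to 2 genes between Pparg and Clec4a2. The cause was not tested. The replicate numbers name no shared mouse, batch or day, and with 2 pairs they are not taken as pairing. The log2 differences of replicate 2 less replicate 1 were nonetheless correlated between WT and KO (correlation 0.42). Among the brightest probe sets the median of these differences was 0.073 in WT and 0.21 in KO. Among the dimmest it was -0.027 and -0.0088. The arrays with the same number therefore share some structure, and its source was not tested. With the replicate block 142 probe sets were higher and 338 lower and 11 pathway genes passed, while the calls of the members were as in the fit without it. The number of arrays limits the precision, and signals near the antisense controls give bounds only.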
